A study of Mus musculus with 4 samples.

Results

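The mitochondrial genome genes are the genes that the gene annotation deposited with the study places on the mitochondrial chromosome (sequence name MT, build GRCm38). They were chosen by that sequence name alone, and they number 37 of the 46078 genes in the annotation. They comprised 13 protein-coding genes, 22 tRNA genes and 2 rRNA genes, which are the gene classes known for this chromosome in mammals. The study itself sequenced polyadenylated RNA of bone marrow-derived macrophages from C57/BL6 mice, cells grown out of marrow with the growth factor M-CSF (50 ng/mL). The mice carried floxed Piezo1 alleles (Piezo1 fl/fl), either without Cre, called WT, or with LysM Cre, a driver of recombination in myeloid cells, called KO. WT and KO mice were cohoused littermates. Cells of each genotype were held for 6 h in a pressure chamber under static or cyclic pressure, which gave 4 groups of 1 library each. The annotation holds no value of any library, so what follows are gene models and sequences with no sampling error, no depth and no test between groups, and the macrophage label was not checked against marker genes.

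Mitochondria keep a small circular chromosome of their own that encodes core subunits of the respiratory chain and of ATP synthase, together with the rRNAs and tRNAs needed to translate them. Both strands are transcribed as long precursors that run through many genes, and tRNAs lying between the other genes are cut out at both ends, which frees the mRNAs and rRNAs on either side. Most mitochondrial proteins, among them all the enzymes of transcription and RNA processing, are made from nuclear genes and imported. The mitochondrial genetic code differs from the standard one: TGA is read as tryptophan and ATA as methionine, and some genes end in an incomplete stop codon that is finished by the addition of the poly(A) tail.

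The sequences at the first bases of the coding genes are shown first, because the start codon differs between them. Each line gives the first 18 bases of the coding sequence, 5′ to 3′ on the sense strand, from GENCODE M21 transcripts on GRCm38, with the start codon in capitals.
mt-Nd1: GTGttctttattaatatc
mt-Nd2: ATAaatcctatcaccctt
mt-Co1: ATGttcattaatcgttga
mt-Co2: ATGgcctacccattccaa
mt-Atp8: ATGccacaactagataca
mt-Atp6: ATGaacgaaaatctattt
mt-Co3: ATGacccaccaaactcat
mt-Nd3: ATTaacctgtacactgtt
mt-Nd4l: ATGccatctaccttcttc
mt-Nd4: ATGctaaaaattattctt
mt-Nd5: ATCaatattttcacaacc
mt-Nd6: ATGaataattatattttt
mt-Cytb: ATGacaaacatacgaaaa

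ATG opened 9 of the 13 coding sequences, against 91.5% of the coding sequences of nuclear protein-coding transcripts in GENCODE M21, models with no start codon line included. The other 4 all belonged to complex I, the NADH dehydrogenase that passes electrons from NADH to ubiquinone: mt-Nd1 began with GTG, mt-Nd2 with ATA, mt-Nd3 with ATT and mt-Nd5 with ATC. The remaining complex I genes, mt-Nd4, mt-Nd4l and mt-Nd6, began with ATG, as did every subunit gene of complexes III, IV and V. The deposited annotation has a start codon line for all 13 genes. GENCODE M21 has no such line for mt-Nd1, mt-Nd2, mt-Nd3 and mt-Nd5, the same 4 genes, and gives the same coding sequence and stop codon lines for all 13. In every coding gene the transcript began at the first base of the start codon.

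The coding genes fell into 4 respiratory complexes. Complex I had 7 genes (mt-Nd1 to mt-Nd6 and mt-Nd4l) with 6361 coding bases, stop codons included. Complex III, which hands electrons from ubiquinol to cytochrome c, had a single gene, mt-Cytb, the cytochrome b gene, with 1144 bases. Complex IV, the cytochrome c oxidase that reduces oxygen, had mt-Co1, mt-Co2 and mt-Co3 with 3013 bases, and complex V, the ATP synthase, had mt-Atp6 and mt-Atp8 with 885 bases. The longest coding gene was mt-Nd5 at 1824 bases and the shortest was mt-Atp8 at 204 bases, or 67 codons before its stop. None of the 13 had a UTR base (0 of 13 genes), against 5.81% of nuclear protein-coding transcripts with a start codon line that had none either.

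The genes ran from the first base of mt-Tf, the phenylalanine tRNA gene, to the last base of mt-Tp, the proline tRNA gene, at 15422. Between these points 15365 bases (99.6%) lay in a gene. Protein-coding genes covered 11338 bases (73.5% of this span), rRNA genes 2537 (16.5%) and tRNA genes 1497 (9.71%). At 239.9 genes per 100 kb, the span was 95.5 times as dense in genes as chromosome 11, the densest nuclear chromosome by the same measure at 2.51. The control region, which holds the promoters and lies on the circle between mt-Tp and mt-Tf, carries no gene line in the annotation, and its length was not analysed here.

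**Figure D1:**
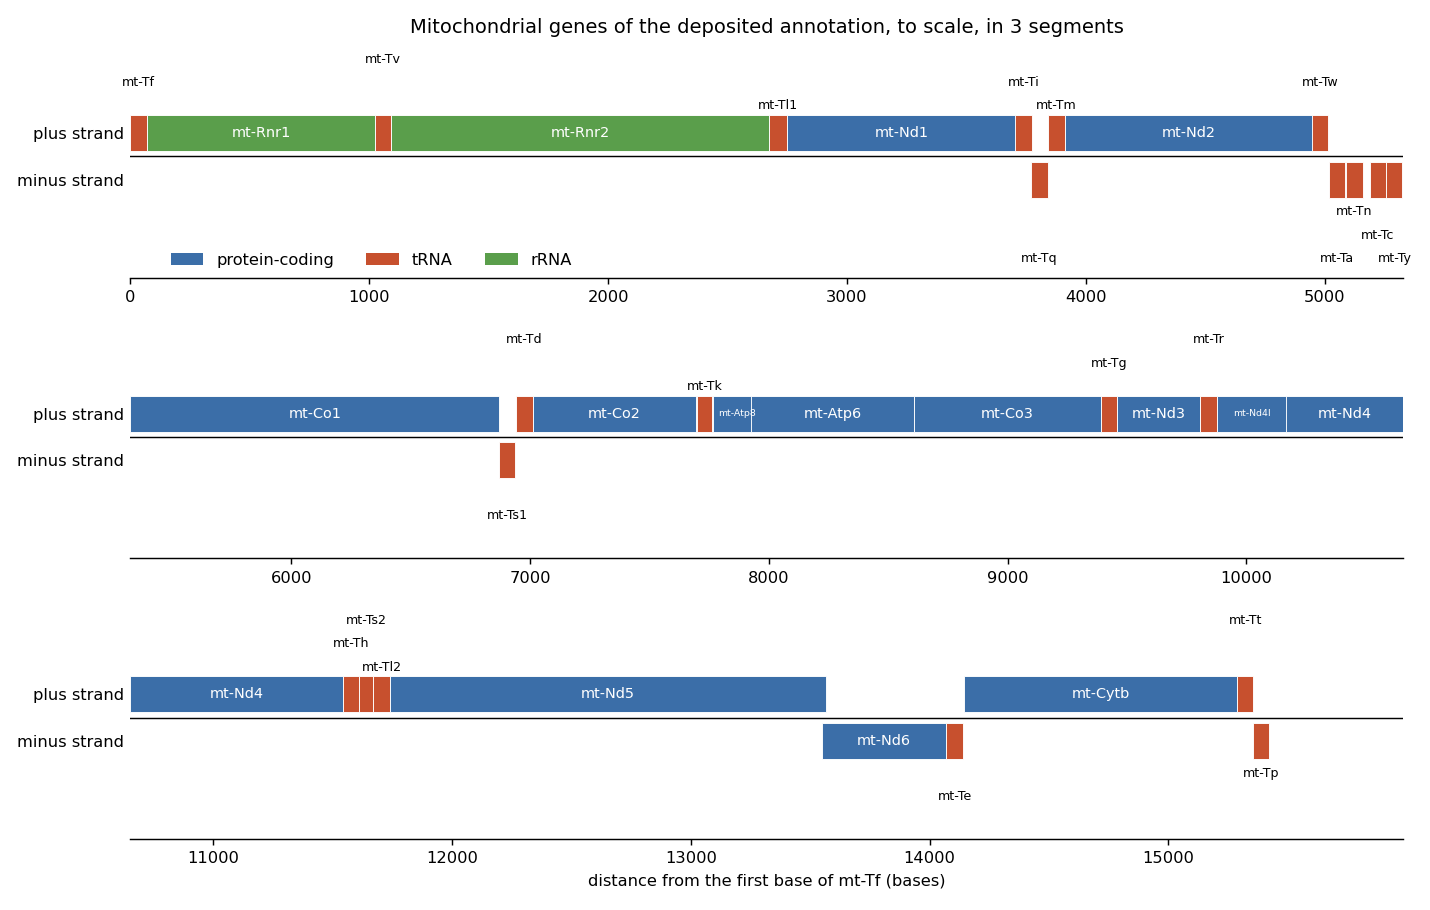
Map of the 37 mitochondrial genes, drawn to scale in 3 segments; the x axis is the distance from the first base of mt-Tf in bases, boxes above the line are plus-strand genes and boxes below are minus-strand genes, coloured by class. The 28 plus-strand genes include 12 of the 13 coding genes; mt-Nd6 and 8 tRNA genes lie below the line, and mt-Nd4 is cut by the end of a segment.

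The plus strand carried 28 of the 37 genes (75.7%) and 93.1% of the gene bases, since the genes of the minus strand were short. The minus strand carried mt-Nd6 (519 bases) and 8 tRNA genes, 1068 bases in all. In order of position these tRNA genes were mt-Tq, the cluster of mt-Ta, mt-Tn, mt-Tc and mt-Ty, then mt-Ts1, mt-Te and mt-Tp. Both rRNA genes lay on the plus strand ahead of every coding gene. mt-Rnr1, the rRNA gene of the small ribosomal subunit, ran from 70 to 1024 (955 bases). mt-Rnr2, that of the large subunit, ran from 1094 to 2675 (1582 bases).

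Of the 36 pairs of neighbours along the map, 12 abutted with no base between them, 15 were separated and 9 overlapped. The gaps were short: 8 were a single base and 14 of the 15 were 5 bases or fewer. The exception was a gap of 32 bases, from 5160 to 5191, between mt-Tn and mt-Tc, in the tRNA cluster where the origin of light-strand replication is known to lie in mammals. This stretch made up 32 of the 57 bases that lay outside every gene. Altogether 26 of 36 pairs stood 0 to 5 bases apart, against 0.0986% of 45648 pairs of neighbours on the nuclear chromosomes, whose median distance was 11560 bases. Overlap was less particular to this chromosome: 9 of the 36 pairs overlapped, and the spans of 18.1% of nuclear pairs did.

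**Figure D2:**
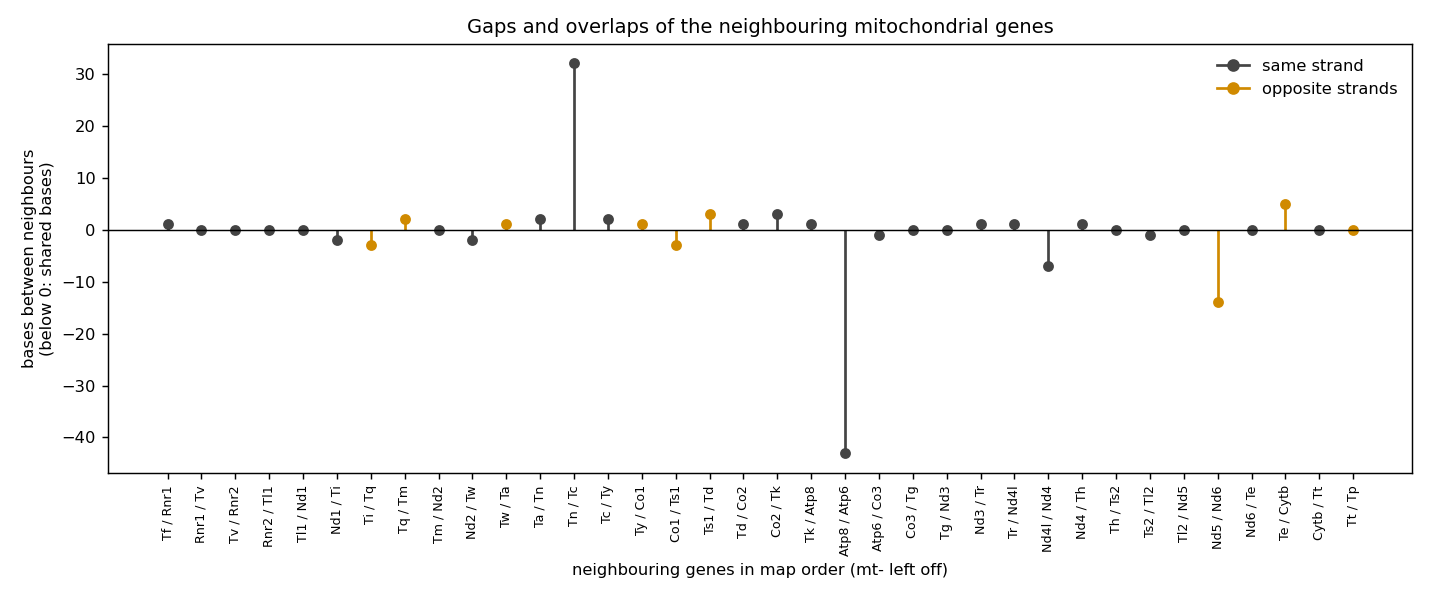
Distance between the genes of each of the 36 neighbouring pairs in map order; the y axis is the number of bases between them, with shared bases below 0, and the colour tells pairs on the same strand from pairs on opposite strands. Most points sit at or near 0; the gap of 32 bases at mt-Tn and mt-Tc and the overlap of 43 bases at mt-Atp8 and mt-Atp6 stand out.

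The 9 overlaps joined 16 of the 37 genes, while 20.0% of nuclear genes shared an exon base with another gene on either strand. They came to 76 bases in all, and 6 of them were on the same strand. Those between coding genes, which include the 3 longest, are shown because the shared bases hold all or part of a start or stop codon of each gene. Each line gives the plus strand with 9 bases on either side, and the capitals mark the bases that belong to both genes (mt-Atp8 and mt-Atp6 at MT:7927-7969, mt-Atp6 and mt-Co3 at base 8607, mt-Nd4l and mt-Nd4 at MT:10167-10173, mt-Nd5 and mt-Nd6 at MT:13552-13565).
mt-Atp8 and mt-Atp6: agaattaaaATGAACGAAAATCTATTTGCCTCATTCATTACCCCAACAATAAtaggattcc
mt-Atp6 and mt-Co3: taatacataAtgacccacc
mt-Nd4l and mt-Nd4: cctactacaATGCTAAaaattattc
mt-Nd5 and mt-Nd6: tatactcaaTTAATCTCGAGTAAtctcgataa

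The genes of ATP synthase subunits 8 and 6, mt-Atp8 and mt-Atp6, shared 43 bases, from the ATG of mt-Atp6 to the TAA of mt-Atp8. mt-Nd4l and mt-Nd4, which encode complex I subunits, shared 7 bases that hold the ATG of mt-Nd4 and the TAA of mt-Nd4l. mt-Atp6 and mt-Co3 shared a single base, the last A of the TAA of mt-Atp6 and the first of the ATG of mt-Co3. In these 3 same-strand overlaps the downstream gene was read in the same relative frame, offset by 2 bases from the frame of the upstream gene. mt-Nd5 and mt-Nd6 converge from opposite strands, and their 14 shared bases hold both stop codons, the TAA of mt-Nd5 and, on the other strand, that of mt-Nd6.

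The other 5 overlaps involved tRNA genes and were at most 3 bases long. The TAG stop codons of mt-Nd1 and mt-Nd2 each gave their last 2 bases to the tRNA gene behind them, mt-Ti for isoleucine (from 3706) and mt-Tw for tryptophan (from 4950). The TAA of mt-Co1 lay over the end of mt-Ts1, a serine tRNA gene of the opposite strand, for 3 bases. The tRNA genes mt-Ti and mt-Tq shared 3 bases on opposite strands, and mt-Ts2 and mt-Tl2 shared 1 base on the same strand. No overlap was as long as the 75-base reads of the study, so no read of full length could lie wholly within 2 mitochondrial genes.

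A tRNA gene stood at 8 of the 12 boundaries between successive coding genes in order of coordinate. The stretch that closes the circle, from mt-Cytb round to mt-Nd1, was not counted among the 12 and held 5 tRNA genes. Of the 12, the boundary of mt-Nd2 and mt-Co1 held the most, with 5 tRNA genes. Only mt-Tw among them was on the plus strand like the genes on either side. Boundaries of mt-Nd1 with mt-Nd2 and of mt-Nd4 with mt-Nd5 held 3 each. That of mt-Co1 with mt-Co2 held 2, and those of mt-Co2 with mt-Atp8, mt-Co3 with mt-Nd3, mt-Nd3 with mt-Nd4l and mt-Nd6 with mt-Cytb held 1 each. The 4 boundaries without a tRNA gene were the 4 overlaps of coding genes shown above. At the boundary of mt-Nd6 and mt-Cytb the only tRNA gene, mt-Te for glutamate, lay on the minus strand with mt-Nd6, so 7 boundaries had a tRNA gene on the strand of both coding genes.

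For the 15 coding and rRNA genes, the adjacent gene at each end was taken, whichever its strand. It was a tRNA gene of the same strand ahead of 10 of them, with 0 bases between in 6 and 1 base in the others. Behind 9 of them the adjacent gene was a tRNA gene of the same strand. Both ends were bounded in this way in 6 genes: mt-Rnr1, mt-Rnr2, mt-Nd1, mt-Nd2, mt-Co2 and mt-Nd3. The 2 genes with no adjacent tRNA gene of their own strand at either end were mt-Co1 and mt-Atp6. mt-Co1 lay between the minus-strand tRNA genes mt-Ty and mt-Ts1, and mt-Atp6 lay between the overlapping coding genes mt-Atp8 and mt-Co3. The start of mt-Cytb followed the minus-strand gene mt-Te after 5 bases, while its end abutted mt-Tt, the threonine tRNA gene.

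Stop codon lines were present for 10 coding genes, with TAA in 8 and TAG in mt-Nd1 and mt-Nd2. mt-Co3, mt-Nd4 and mt-Cytb had none, and among nuclear protein-coding transcripts with a start codon line 15.7% had none. That nuclear share counts every model without the line, whatever the reason, and is not a share of incomplete stop codons. The last 18 bases of these 3 genes are shown because the reading frame leaves a lone T at the end, here in capitals. The ends of mt-Co2 and mt-Nd1 follow for comparison, with their complete stop codons in capitals.
mt-Co3 end: tttattgatgaggatctT
mt-Nd4 end: ttacaggcctgacaataT
mt-Cytb end: tactaaaattatatccaT
mt-Co2 end: tctgcttcaataattTAA
mt-Nd1 end: gtaccaccatacataTAG

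The frame of mt-Co3 ran for 261 codons, that of mt-Nd4 for 459 and that of mt-Cytb for 381 before the single T. Behind the T, the glycine tRNA gene mt-Tg abutted mt-Co3 and mt-Tt abutted mt-Cytb, and mt-Th, the histidine tRNA gene, began 1 base after mt-Nd4. The coding-sequence lines of the deposited annotation include this last T.

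The 13 reading frames held 3790 codons before their stops and used 60 different ones. TGA occurred 96 times in frame, in 12 of the 13 genes, and TGG, the other tryptophan codon of this code, 7 times, so that TGA made up 93.2% of the pair. mt-Co1 had the most TGA codons with 17, and the first of them was codon 6, which closes the stretch of mt-Co1 shown above. mt-Nd4l had 0. In the other genes the first TGA lay at codon 86 or earlier, a position at which the standard code would stop. ATA, with 217, stood for 87.9% of the ATA and ATG codons, and ATG occurred 30 times. These counts include the start codons, which were ATG in 9 genes and ATA in 1. TAA, TAG, AGA and AGG each had 0 occurrences inside a frame.

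Base composition separated mt-Nd6, the coding gene of the minus strand, from the other 12. On the sense strand G made up 28.3% of its coding bases and C 6.01%. In the 12 plus-strand coding genes G ran from 5.97% in mt-Atp8 to 16.2% in mt-Co1, with a median of 11.1%, and C from 22.3% in mt-Nd3 to 30.3% in mt-Nd4l. For both bases the value of mt-Nd6 therefore lay outside the range of the plus-strand genes. At the third codon position the 12 genes pooled had 3.26% G and 27.7% C, against 22.7% G and 1.16% C in mt-Nd6, where T took 50.6%. Nuclear coding sequences had a median of 26.1% G, and 95% of them lay between 18.1% and 33.7%. For C their median was 25.65%, and 95% lay between 17.6% and 35.1%. mt-Nd6 lay within the nuclear range for G and below it for C. The 12 plus-strand genes lay below the nuclear range for G and within it for C. Only 13 of 21853 nuclear genes had less G than the 11.5% of the plus-strand mitochondrial genes pooled.

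**Figure D3:**
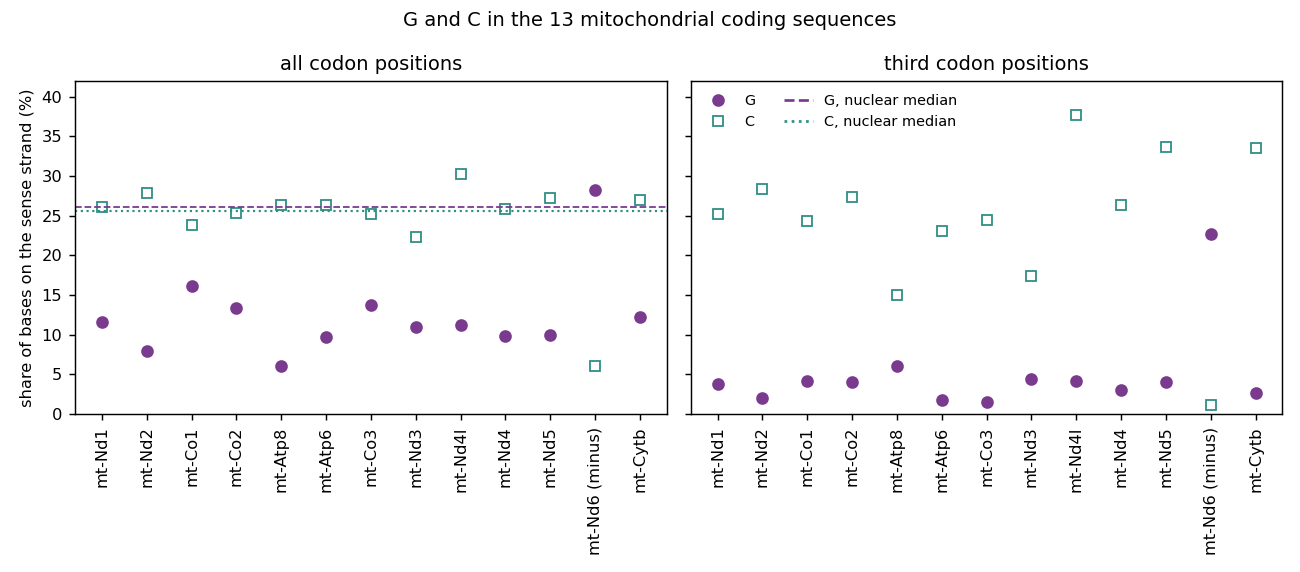
Share of G (filled circles) and C (open squares) on the sense strand of the 13 coding sequences, in percent, over all codon positions on the left and at the third position on the right; the dashed (G) and dotted (C) lines on the left are the medians of nuclear coding sequences. In the 12 plus-strand genes every G value lies below every C value, and in mt-Nd6 the order is turned round (28.3% G against 6.01% C).

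For G, the tRNA genes differed between strands in the same direction, to a lesser degree. G ranged from 17.9% in mt-Ty to 29.9% in mt-Tp over the 8 minus-strand genes (median 23.0%). In the 14 plus-strand genes it ranged from 7.14% in mt-Td to 21.3% in mt-Tl1 (median 15.7%), so the ranges overlapped. C ran from 11.3% in mt-Tq to 16.4% in mt-Ty over the minus-strand tRNA genes. This lay within the plus-strand range for C, 8.82% in mt-Tr to 26.1% in mt-Tm. The rRNA genes had 16.1% G in mt-Rnr1 and 16.2% G in mt-Rnr2.

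The 22 tRNA genes measured 59 to 75 bases, with mt-Ts2, a serine gene, the shortest and mt-Tl1, a leucine gene, the longest. All but mt-Tl1 were shorter than a 75-base read, and mt-Tl1 was exactly that long. Leucine and serine each had 2 genes, and the other 18 amino acids had 1. The genes of the minus strand are printed whole, because their letters run against the map: each line is the sense strand, 5′ to 3′, and the capitals mark the anticodon, the triplet that pairs with the codon.
mt-Tq: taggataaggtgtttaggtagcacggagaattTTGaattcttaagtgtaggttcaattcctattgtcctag
mt-Ta: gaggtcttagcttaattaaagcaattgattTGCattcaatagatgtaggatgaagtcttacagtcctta
mt-Tn: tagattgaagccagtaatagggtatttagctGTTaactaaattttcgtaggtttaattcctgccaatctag
mt-Tc: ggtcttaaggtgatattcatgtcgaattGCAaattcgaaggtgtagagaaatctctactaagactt
mt-Ty: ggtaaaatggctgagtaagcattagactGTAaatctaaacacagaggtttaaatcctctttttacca
mt-Ts1: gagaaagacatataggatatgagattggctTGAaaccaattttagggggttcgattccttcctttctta
mt-Te: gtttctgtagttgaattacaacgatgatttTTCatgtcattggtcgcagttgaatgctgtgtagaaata
mt-Tp: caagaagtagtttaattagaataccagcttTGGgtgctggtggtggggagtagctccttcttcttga

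The anticodon was located by a hairpin rule: a stem of 5 pairs (G with T allowed), a loop of 7 bases with T at its base 2, and the loop within bases 24 to 40 of the gene. Exactly 1 such hairpin was found in 15 of the 22 genes, the 8 genes of the minus strand included. In all 15 the triplet at loop bases 3 to 5 read a codon of the amino acid that the gene's symbol names, under the vertebrate mitochondrial code. The hairpin rule was chosen after its values were seen, as was the acceptor-stem rule below. These matches are therefore a description and no independent test. mt-Tq, for glutamine, had TTG and reads CAA, and mt-Te, for glutamate, had TTC and reads GAA. No hairpin met the rule in 6 genes (mt-Tv, mt-Tl1, mt-Tm, mt-Tw, mt-Ts2 and mt-Tt), and mt-Tk, for lysine, had more than 1. The acceptor stem was tested as 7 pairs between the gene's first bases and the bases before its last one, again with G and T allowed to pair. It was complete in 16 genes and had 6 pairs in 5 more. In 12 genes all 7 pairs were A with T or G with C.

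mt-Th was the exception, with 1 of 7 acceptor pairs. Its sequence is shown with its first 7 bases and the 7 bases before its last 2 in capitals.
mt-Th: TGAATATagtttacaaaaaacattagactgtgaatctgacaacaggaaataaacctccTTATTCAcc

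Paired with those bases, 2 from the end in place of 1, mt-Th reached 6 of 7 pairs. The other 21 tRNA genes had their largest number of pairs with 1 unpaired base at the end. The base just upstream of mt-Th, 11545, is the single base that separates it from mt-Nd4. The 1 of 7 pairs and the 1-base gap both rest on the annotated start of mt-Th, 11546, and whether the gene begins at 11545 instead was not tested. RefSeq gives the same start and end for mt-Th and for all 37 genes. The deposited models all carry the source label insdc, so the 37 equal coordinates need not be an independent check of that start.

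No mitochondrial gene had an intron (0 of 37 genes), and each had a single transcript of 1 exon. Among nuclear genes, 11.3% of protein-coding ones had no intron in any transcript, and 65.8% of all genes had a single transcript. The annotation also gave each of the 37 genes a start-site identifier of its own, 37 in all, so that it carries no unit that joins the genes of a shared precursor.

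Nuclear genes whose products replicate and maintain mitochondrial DNA or transcribe, process and translate its RNA were counted for contrast. Of 43 listed symbols, which include older and newer names of the same gene, 40 were found and 3 were not, and these gave 41 genes because Mtif3 stands for 2 gene identifiers. None lacked an intron (0 of 41 genes), and the largest exon number of any transcript had a median of 8. Lrpprc, whose product binds and stabilises mitochondrial mRNAs, had the most with 38 exons over 85543 bases. Elac2, the enzyme that cuts at the 3′ end of tRNAs, had 25. The fewest, 2 exons, were found in 4 genes: Trmt10c, a subunit of the mitochondrial RNase P that cuts at the 5′ end of tRNAs; Mterf1a and Mterf1b, of the transcription termination factor family; and Fastkd5, known for maturing mRNA ends that no tRNA bounds. The shortest gene of the list, Hsd17b10, which encodes another RNase P subunit, spanned 2598 bases in 6 exons.

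Many stretches of the mitochondrial coding genes also occur letter for letter in annotated nuclear transcripts, all of them sense copies in pseudogenes of GENCODE M21. Of the 12831 windows of 75 bases, the read length, in the 16 mitochondrial genes long enough to have one, 3880 (30.2%) were found in a nuclear transcript. The share differed widely between genes. It was 99.9% for mt-Co3, 99.5% for mt-Co2 and mt-Atp6, 98.7% for mt-Nd4l, 97.8% for mt-Nd3, 61.5% for mt-Nd4 and 39.8% for mt-Co1. It was 5.71% for mt-Nd2 and 1.66% for mt-Nd5. mt-Nd1, mt-Atp8, mt-Nd6, mt-Cytb, both rRNA genes and mt-Tl1 shared 0 windows of this length. At 50 bases mt-Rnr2 shared 1.04% of its windows, and at 100 bases mt-Nd5 shared 0.

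**Figure D4:**
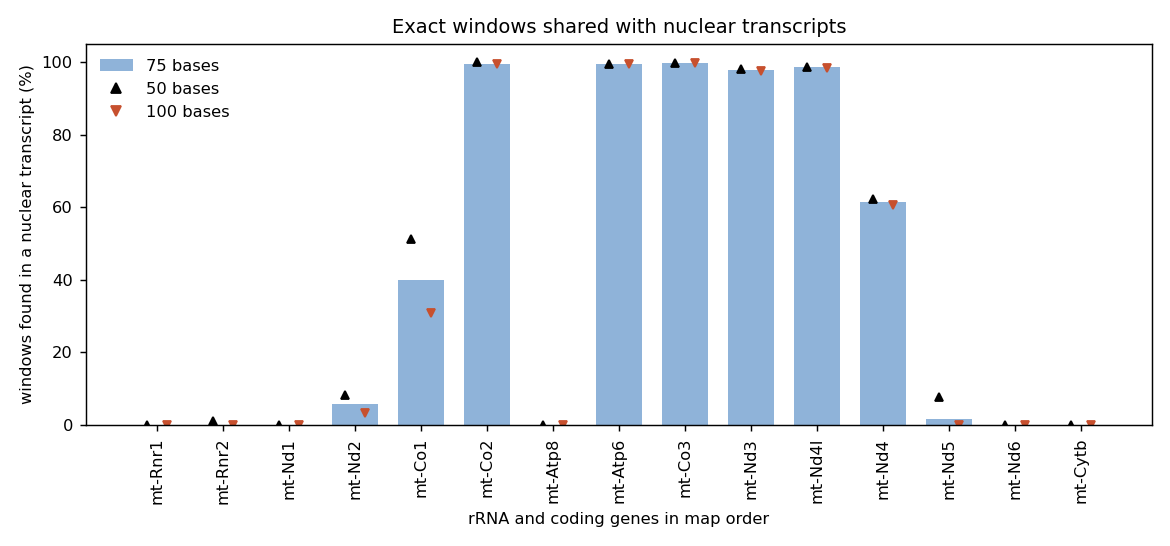
Share of exact windows of each rRNA and coding gene that also occur in a nuclear transcript, in percent; bars are windows of 75 bases and the triangles are windows of 50 and 100 bases. The genes from mt-Co2 to mt-Nd4l, mt-Atp8 apart, stand at 97.8% or more for 75 bases, and mt-Nd1, mt-Nd6 and mt-Cytb stand at 0.

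These matches came from 12 nuclear genes, all of them present in the deposited annotation. On the minus strand of chromosome 1, 7 pseudogenes from 24611535 to 24616197, a span of 4663 bases, followed the mitochondrial order from mt-Co1 to mt-Nd4: Gm29216 (mt-Co1), Gm28661 (mt-Co2), Gm10925 (mt-Atp6), Gm28437 (mt-Co3), Gm28438 (mt-Nd3), Gm10222 (mt-Nd4l) and Gm28439 (mt-Nd4). In 5 of them the whole annotated sequence occurred without a mismatch in the mitochondrial gene, with exact runs of 783 bases for mt-Co3 in Gm28437 and 876 bases for mt-Nd4 in Gm28439. Between Gm10925 and Gm28661, where mt-Atp8 would stand in the mitochondrial order, 233 bases carried no annotated gene, so that a copy of mt-Atp8 there would not have been seen in this search. On chromosome 2, Gm13340 (mt-Co1), Gm13341 (mt-Co2) and Gm13339 (mt-Nd2) had exact runs of at most 173 bases. Matches to mt-Nd5 were shorter still, with runs of 95 bases in Gm11407 on chromosome 4 and 82 bases in Gm4076 on chromosome 13. Taken alone, a 75-base read from such a stretch matches the mitochondrial gene and the pseudogene equally well. Reads of the study were paired, and a mate outside the stretch, which could differ between the copies, was not considered here. The sources used here do not say how reads of that kind were assigned.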

How the data were processed

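The file analysed is a gene annotation in GTF format for the whole series. Its values are other than expression: the authors deposited start and end coordinates, 1-based on GRCm38, with Ensembl identifiers, and 0 of its columns hold values of a library. Tools named in the submitters' processing notes were Cufflinks, TopHat2, Bowtie2, FastQC and CASAVA 1.8, with builds mm10 and GRCm38; their roles, strand setting and annotation release are not given in the sources used here. Reads were paired, 75 bases long, per the labels' protocols, and the depth per sample is unknown.

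Genes on sequence MT were taken with Python 3.11.15. Neighbours were ordered by start, and an overlap is at least 1 shared base. Bases were read from GENCODE M21 transcripts, since 37 of 37 genes had the same exon and strand there; overlapping transcripts disagreed at 0 bases. The codon table came from Biopython 1.88. Windows were matched exactly on either strand against nuclear GENCODE M21 transcripts; the nuclear genome was not searched. For nuclear G content the longest coding sequence of each gene was used. The functions were tested on simulated data. Recovered were 400 of 400 gaps, 200 of 200 genes for overlaps, 100 of 100 copies for shared windows and 200 of 200 planted hairpins. A copy counted as recovered when its windows came within a few of the true number. A planted hairpin counted when it was among those found, and extra hairpins were not held against it. The rule for named genes allowed every mitochondrial gene and, from the nuclear list, those with the most and fewest exons; Elac2, Hsd17b10 and the pseudogenes were chosen after their values were seen, as were the hairpin and acceptor-stem rules. Members and lists were chosen with earlier results of these data known.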

Additional observations from a re-analysis of the deposited data

How the results depend on the processing

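GENCODE M21 gave the same counts as the deposited annotation for genes, overlaps, bases outside genes, tRNA boundaries, introns, incomplete stop codons and strand. The RefSeq gene table, an alternative chosen after seeing the data, gave the same number of genes. Exon and strand were the same in GENCODE M21 for 37 of 37 genes, and start and end in RefSeq for all 37. Every deposited model carries the source label insdc, so these annotations need not be independent. Equal counts were thus fixed by equal coordinates and are no independent check. Overlapping pairs fell from 9 to 2 when at least 10 shared bases were asked for, those of mt-Atp8 with mt-Atp6 and mt-Nd5 with mt-Nd6. Bases outside every gene fell from 57 to 25 without the longest stretch. The plus strand held 75.7% of genes and 93.1% of gene bases. Windows shared with nuclear transcripts were 32.0% at 50 bases, 30.2% at 75 and 28.4% at 100. G in the plus-strand coding genes was 11.5% over all positions and 3.26% at the third codon position, and in mt-Nd6 28.3% and 22.7%. Nuclear coding genes without an intron were 11.3% over every transcript and 12.7% by the longest one. These shifts follow from what each setting counts. A search of the nuclear genome was not run. No paired analysis was possible because the annotation carries no value of any library, and with 1 library a group no replicate could be left out. Depth limits nothing printed here, since no value is a count of reads.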

Other observations

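The CCA triplet that every mature tRNA carries at its 3′ end is added by an enzyme, Trnt1, and is not normally encoded in mitochondrial tRNA genes. In the annotated genes, 1 of 22, mt-Ty, ended with the letters cca. Its acceptor stem had 7 of 7 pairs with the last base left unpaired. The letters cc were thus paired within the stem, and the final a was the unpaired end base. The ending is therefore not an encoded CCA tail.

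CTA was the most used codon with 266 of 3790 (7.02%), followed by ATT with 234 and ATA with 217, while CCG and AAG were used 2 times each.

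Gm4076, which shares 8 windows of 75 bases with mt-Nd5, is classed as protein-coding in the deposited annotation and as a processed pseudogene in GENCODE M21. On chromosome 13 it starts at 85126999 in the first and at 85126550 in the second, with the same end at 85127514.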
